A study of Mus musculus with 8 samples.

Results

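The genes *Col2a1*, *Col9a1*, *Col9a2*, *Col11a1*, *Col11a2* and *Col27a1* encode chains of collagens II, IX, XI and XXVII, the fibril-forming and fibril-associated collagens of cartilage. They were chosen by symbol and were linked by Ensembl identifier to the raw counts, and all 6 were found among the 43629 genes of the count table. Chondrocytes were cut by laser microdissection (LMD) from growth plates of Axin2CreERT2;R26RTdTomato mice, all of which received tamoxifen on 3 consecutive days from postnatal day 23 and were analyzed on day 30. The resting zone group was TdTomato-positive resting chondrocytes and the proliferative zone group was unlabeled, flattened chondrocytes that lay at least 50 µm from the secondary ossification center. Each of 4 mice gave 1 library per zone (n = 4 per zone); by the labels mice 1 and 2 were male and mice 6 and 13 were female. In these mice the tamoxifen-activated Cre is driven by *Axin2*, and it marks the cells that express *Axin2* together with their descendants. The resting group was thus selected by a lineage label and the proliferative group by shape and position, and no library came from mice without Cre or tamoxifen. The sample labels name tibiae, whereas the methods name the distal femur and the proximal tibia.

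Cartilage owes its tensile strength to thin heterotypic fibrils. Type II collagen, made of a single kind of chain from *Col2a1*, forms the bulk of these fibrils, type XI collagen lies in their core and limits their width, and type IX collagen sits on their surface and links them to one another and to other matrix molecules. Type XXVII collagen forms separate thin fibrils and is made by chondrocytes, and in the growth plate all 4 types belong to the matrix that resting and columnar chondrocytes lay down around themselves.

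Resting libraries held 192882 to 462044 counts on genes and proliferative libraries 249284 to 631474. Levels are given as CPM, which are counts scaled to a common library size and by TMM factors. These totals are low, and 3793 genes passed the filter on low counts, among them all 6 collagen genes. The 8 chondrocyte markers that are not among the 6 genes summed to 1701 to 7437 CPM in resting libraries and to 16541 to 29472 CPM in proliferative libraries. The 50 markers of bone and marrow cells (osteoclast, osteoblast, macrophage, neutrophil, erythroid, B lymphoid and endothelial lists) took 2.26% to 5.70% of counts in resting and 0.101% to 0.671% in proliferative libraries. The resting zone library of mouse 6 stood apart from the other 3, with the highest chondrocyte sum and the lowest share of these bone and marrow markers (2.26%, against 3.57% to 5.70%), and values without it are given for the 6 genes and for several others. Its osteoblast and osteocyte markers summed to 8628 CPM, against 22743 to 36723 CPM in the other 3 resting zone libraries. It was also the lowest of them for macrophage and endothelial markers, but not for osteoclast, neutrophil, erythroid and B lymphoid markers. Of the 50 markers 27 were tested, 19 of them were called higher in the resting zone and 0 lower, and *Ocstamp*, *Calcr*, *Mepe*, *Adgre1*, *Elane*, *Mpo*, *Cd79a*, *Pecam1*, *Kdr* and *Tie1* were among those at 0 in all proliferative zone libraries. The part of these markers in the differences between zones was not tested, and in dissected tissue fewer cells of a type and less RNA per cell cannot be told apart.

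By TMM-scaled CPM, transcripts of all 6 genes were less abundant in the resting zone library than in the proliferative zone library of the same mouse, in 4 of 4 mice. With library size as the sole scaling this held for *Col2a1* and *Col11a1*. The other 4 genes were then lower in 3 of 4 mice. In mouse 6 the resting zone library was slightly the higher (881 against 841 CPM for *Col9a1*, 1338 against 1224 for *Col9a2*, 491 against 474 for *Col11a2* and 2318 against 2265 for *Col27a1*). The difference was called, at an adjusted p below 0.01 and a log2 fold change beyond 1 in size, for *Col2a1*, *Col9a2* and *Col11a1*, which is 3 of 6 genes, while 6.93% of all tested genes were called lower in the resting zone. In the fit that blocks on the mouse, with libraries of the same animal paired, *Col11a2* and *Col27a1* were called as well, which is 5 of 6 genes beside 6.06% of all tested genes. For 4 of the 6 genes every resting zone value lay below every proliferative zone value, which held for 15.1% of all tested genes. By library size alone it held for 2 of the 6, *Col2a1* and *Col11a1*, and for 12.4% of all tested genes. *Col11a1* differed most, with a 5.97-fold higher fitted level in the proliferative zone, and the other 5 genes differed by 2.51-fold to 3.07-fold.

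*Col2a1* (ENSMUSG00000022483, GRCm38 chromosome 15, 97975602 to 98004695, minus strand) encodes the chain of type II collagen. It had 4778 CPM in mouse 1, 4365 in mouse 2, 8386 in mouse 6 and 6237 in mouse 13 in the resting zone, and 12233, 20685, 10924.5 and 17399 CPM in the same mice in the proliferative zone. The zones did not overlap, although the resting zone library of mouse 6 came within 1.30-fold of the proliferative zone library of that mouse. The log2 fold change of the resting over the proliferative zone was -1.37 (standard error 0.28, edgeR adjusted p = 0.00275). When the resting library of mouse 6 was left out it was -1.60 (edgeR adjusted p = 0.000912). *Col2a1* ranked at place 14 of all tested genes by mean CPM in the resting zone and at place 8 in the proliferative zone.

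*Col9a1* and *Col9a2* encode chains of type IX collagen, which has interrupted triple helices and does not form fibrils alone. *Col9a1* (ENSMUSG00000026147, chromosome 1, 24177610 to 24252684, plus strand) had 200.5, 294.8, 809.7 and 299.3 CPM in the resting zone of mice 1, 2, 6 and 13 and 776.6, 1779, 850.6 and 642.9 CPM in their proliferative zone. The ranges overlapped, since the resting zone of mouse 6 exceeded the proliferative zone of mice 1 and 13, and the proliferative zone of mouse 2 was well above the other 3. Its log2 fold change was -1.33 (standard error 0.44), which did not pass the threshold (edgeR adjusted p = 0.0355). It did not pass with the mouse as block either (edgeR adjusted p = 0.0176). Without the resting library of mouse 6 it was -1.96 and was called (edgeR adjusted p = 0.00184). Without the proliferative library of mouse 2 it was -0.97 and without both libraries of mouse 2 -0.80 (edgeR adjusted p = 0.117 and 0.233).

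*Col9a2* (ENSMUSG00000028626, chromosome 4, 121039385 to 121055322, plus strand) had 306.8, 370.9, 1229.5 and 412.2 CPM in the resting libraries and 2066, 1674, 1238 and 2202 CPM in the proliferative libraries, in the same order of mice. In mouse 6 the zones were level, at a ratio of 1.01, whereas in mice 1, 2 and 13 the proliferative zone was 6.73-fold, 4.52-fold and 5.34-fold higher. The log2 fold change was -1.62 (standard error 0.41, edgeR adjusted p = 0.00943). This call was near the threshold and was lost whenever a library of mouse 1, 2 or 13 was left out (edgeR adjusted p = 0.0131 to 0.0311). With the resting library of mouse 6 left out the log2 fold change was -2.33 (edgeR adjusted p = 0.000128). The third chain of type IX collagen is encoded by *Col9a3*, named here because it completes the molecule. It had 263.8 ± 176.2 CPM in resting and 661.5 ± 215.9 CPM in proliferative chondrocytes (SD, n = 4 each), and its log2 fold change of -1.31 (standard error 0.39) was not called (edgeR adjusted p = 0.0230). It was called with the mouse as block (-1.45, edgeR adjusted p = 0.00734), by the likelihood ratio test (edgeR adjusted p = 0.00869) and without the resting library of mouse 6 (-1.93, edgeR adjusted p = 0.000625). Exons of *Col9a3* share 234 bases with *Tcfl5* on the opposite strand, which held 463 to 1790 counts per resting zone library and 8981 to 19222 per proliferative zone library, against 36 to 265 and 141 to 555 counts for *Col9a3*. The strand setting of the counting is not given in the sources used here, so reads of these genes cannot be told apart. No exon of the 6 genes overlaps an exon of another gene in GENCODE M21, and whether reads of these 6 were left uncounted on the other strand was not tested.

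**Figure D1:**
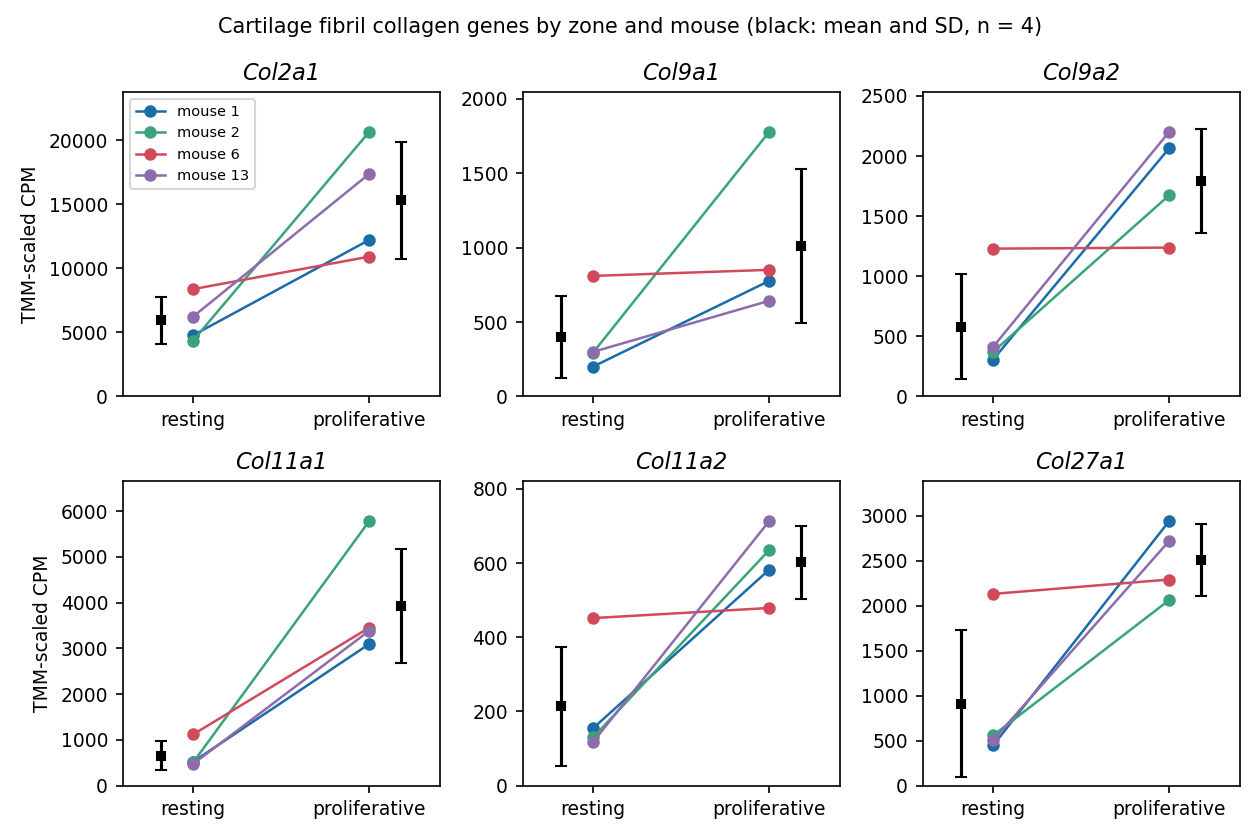
TMM-scaled CPM of each of the 6 genes in the resting and the proliferative zone library of mice 1, 2, 6 and 13, joined by a line within each mouse, with the mean and SD of the 4 libraries of a zone in black. In mouse 6 the lines of *Col9a1*, *Col9a2*, *Col11a2* and *Col27a1* run almost flat, while that of *Col11a1* rises from 1120 to 3455 CPM.

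*Col11a1* and *Col11a2* encode chains of type XI collagen, the minor fibrillar collagen of the fibril core. *Col11a1* (ENSMUSG00000027966, chromosome 3, 114030540 to 114220718, plus strand) had 522.5, 507.2, 1120.1 and 476.0 CPM in the resting libraries and 3099, 5787, 3455 and 3388 CPM in the proliferative libraries of mice 1, 2, 6 and 13. The lowest proliferative zone value was 2.77-fold above the highest resting zone value, a wider gap than for any of the other 5 genes, and it held in mouse 6, where the proliferative zone was 3.09-fold higher. The log2 fold change was -2.58 (standard error 0.33, edgeR adjusted p = 0.000261), and it ranked at place 78 from the lowest among 3793 tested genes. It stayed called when each library was left out in turn, with log2 fold changes of -2.99 to -2.39.

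*Col11a2* (ENSMUSG00000024330, chromosome 17, 34039437 to 34066685, plus strand) was the least abundant of the 6 genes, with 154.9, 130.0, 451.6 and 117.8 CPM in the resting libraries and 582.4, 635.2, 478.9 and 713.4 CPM in the proliferative libraries. The zones did not overlap, but the values of mouse 6 differed by 1.06-fold only. By library size alone their order turned and the zones overlapped. The log2 fold change was -1.47 (standard error 0.39), and its edgeR adjusted p of 0.0134 missed the threshold, which it passed with the mouse as block (-1.70, edgeR adjusted p = 0.0091). When the resting library of mouse 6 was left out the log2 fold change was -2.17 (edgeR adjusted p = 0.000128).

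*Col27a1* (ENSMUSG00000045672, chromosome 4, 63214004 to 63334991, plus strand) encodes the chain of type XXVII collagen. It had 446.5, 557.9, 2131 and 505.5 CPM in the resting libraries and 2941, 2063, 2291 and 2721 CPM in the proliferative libraries of mice 1, 2, 6 and 13. The ranges overlapped through mouse 6, whose resting zone value was 4.23 times the mean of the other 3 resting zone libraries, the largest such excess among the 6 genes. The log2 fold change was -1.45 (standard error 0.45) and was not called (edgeR adjusted p = 0.0264), but it was called with the mouse as block (-1.80, edgeR adjusted p = 0.00621). When that library was left out it was -2.33 (edgeR adjusted p = 5.12e-05).

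Windows before the RefSeq starts of the genes were read from RefSeq promoters on GRCm38.p6, in which 5 of the 6 genes had entries, with 2 starts for *Col9a1*; *Col2a1* had none. RefSeq and GENCODE place some starts differently, and 3 of the 6 windows lie wholly before the GENCODE gene, those of *Col11a1*, *Col11a2* and the first start of *Col9a1*. The windows of *Col27a1* and of the second start of *Col9a1* lie wholly inside the gene, and 181 of the 250 bases of the *Col9a2* window do. In the 250 bases before each of these 6 starts, both strands were searched for the GC box GGGCGG, for TATAAA, and for ACAAAG and ACAATG, the core letters that SOX proteins bind. The GC box was found in the windows of *Col9a2*, *Col11a1*, *Col11a2* and *Col27a1*, in 4 of 6 windows, against 32.7% of all 32851 windows of this length. The 2 GC boxes of *Col9a2*, which fall among those 181 bases, all of them in an annotated UTR, and that of *Col27a1* are inside the GENCODE gene. *Col11a2* alone held TATAAA, which 12.4% of all windows hold, and ACAAAG and ACAATG, found in 16.5% and 10.7% of all windows, were in none of the 6. The windows of the type XI chains, which form 1 molecule and differed 5.97-fold and 2.76-fold between zones, are shown with the gene of type XXVII collagen, 5′ to 3′ on the plus strand up to the base before the start, with the GC box (GGGCGG or its reverse complement) and TATAAA in capitals.
Col11a1, chr3:114030290-114030539: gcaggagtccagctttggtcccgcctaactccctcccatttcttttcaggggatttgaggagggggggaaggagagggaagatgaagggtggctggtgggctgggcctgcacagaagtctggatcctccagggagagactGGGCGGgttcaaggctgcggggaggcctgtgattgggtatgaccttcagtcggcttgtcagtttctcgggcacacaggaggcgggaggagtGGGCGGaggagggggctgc
Col11a2, chr17:34038888-34039137: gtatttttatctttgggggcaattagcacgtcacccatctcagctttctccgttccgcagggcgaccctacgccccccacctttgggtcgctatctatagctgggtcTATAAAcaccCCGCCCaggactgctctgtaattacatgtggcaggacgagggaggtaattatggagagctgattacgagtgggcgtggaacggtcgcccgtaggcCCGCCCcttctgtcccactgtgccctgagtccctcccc
Col27a1, chr4:63215162-63215411: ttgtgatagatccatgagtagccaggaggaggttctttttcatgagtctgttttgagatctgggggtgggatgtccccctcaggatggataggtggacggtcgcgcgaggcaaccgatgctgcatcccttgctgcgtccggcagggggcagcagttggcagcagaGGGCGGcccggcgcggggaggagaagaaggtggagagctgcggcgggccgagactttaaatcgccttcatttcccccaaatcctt

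The GC boxes lay 110 to 105 and 19 to 14 bases before the start in *Col11a1*, 133 to 128 and 38 to 33 bases before it in *Col11a2*, and 85 to 80 bases before it in *Col27a1*. TATAAA lay 143 to 138 bases before the start of *Col11a2*. Both type XI windows thus held 2 GC boxes each and differed in the presence of TATAAA, and their GC content was 62.4% and 57.6%, against a median of 52.4% over all windows. These matches describe letters in the windows only.

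By the labels, libraries that share a number share an animal. Blocking on the mouse thus called all but *Col9a1*. With no block and with the resting library of mouse 6 left out, all 6 genes were called, beside 9.61% of all genes tested in that fit. DESeq2 called 5 of the 6 genes, all but *Col9a1*, beside 9.28% of all tested genes, and edgeR's likelihood ratio test called 4, beside 10.2%. With library size as the sole scaling 2 were called, beside 5.46%, and with all genes of at least 1 count in the fit 6 were called, beside 2.68%. Leaving out both libraries of mouse 1, 2 or 13 left *Col11a1* as the only gene called, beside 4.48%, 3.61% and 2.42% of the genes tested there, and leaving out those of mouse 6 gave 6 called, beside 8.58%. The resting library of mouse 6 was the highest of the 4 resting zone libraries in 45.8% of the 260 other genes called lower in the resting zone, in 30.3% of all tested genes and in 16.0% of genes called higher there.

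**Figure D2:**
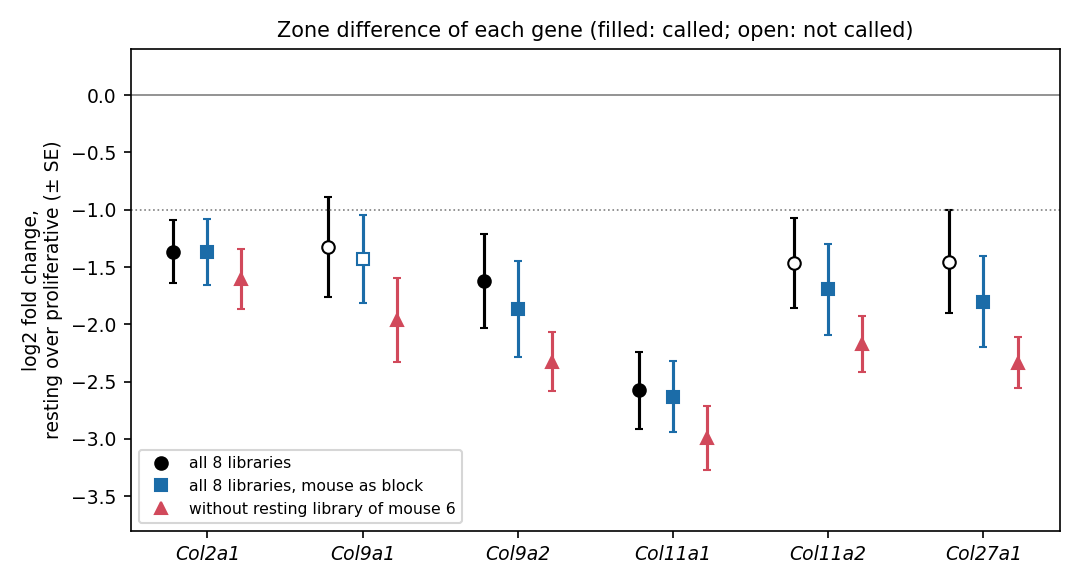
Log2 fold change (resting over proliferative zone, ± standard error) of each of the 6 genes from all 8 libraries, with a block for the mouse, and with the resting library of mouse 6 left out. Filled symbols were called and open symbols were not, and the dotted line marks a log2 fold change of -1; all estimates lie below 0, and *Col11a1* is the lowest in each fit.

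**Figure D3:**
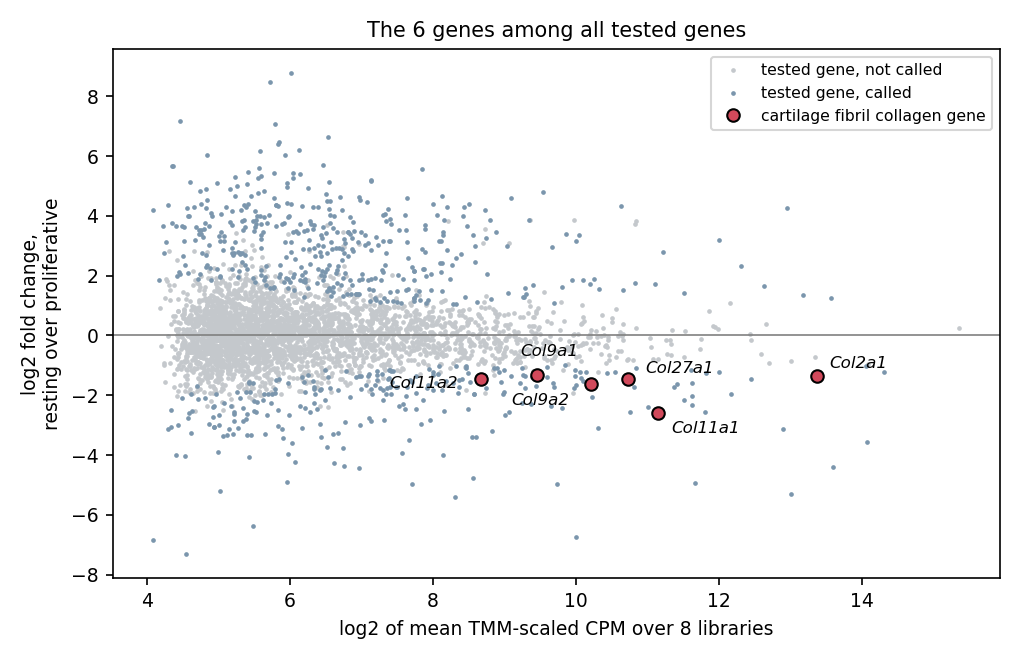
Log2 fold change (resting over proliferative zone) against the log2 of the mean CPM for the 3793 tested genes, with called genes in blue and the 6 collagen genes in red. The 6 genes lie below 0 and toward the abundant end, with *Col2a1* farthest to the right and *Col11a1* lowest.

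Together the 6 genes took 0.633%, 0.651%, 1.54% and 0.850% of the counts in the resting zone of mice 1, 2, 6 and 13, and 2.05%, 3.05%, 1.90% and 2.62% in the proliferative zone. The 95% Wilson intervals, which cover counting error only, spanned 0.607% to 0.661% in the resting zone of mouse 1 and 1.502% to 1.573% in that of mouse 6. The zones did not overlap, with means of 0.918% ± 0.424 in resting and 2.40% ± 0.529 in proliferative libraries (SD, n = 4 each), and the resting zone mean was 0.712% ± 0.121 (SD, n = 3) without mouse 6. Within these counts *Col2a1* made up 74.6%, 70.1%, 59.4% and 77.5% in resting and 56.4%, 63.4%, 56.8% and 64.3% in proliferative libraries. The mean share of *Col2a1* was thus 70.4% ± 7.95 in resting and 60.2% ± 4.21 in proliferative libraries (SD, n = 4 each), and the ranges overlapped only through mouse 6.

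**Figure D4:**
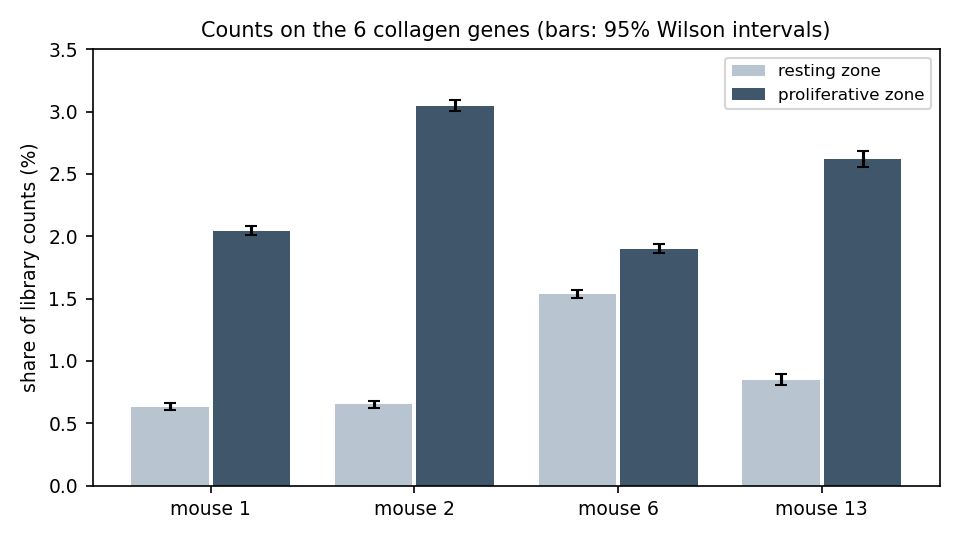
Share of all library counts that fell on the 6 genes in the resting (light) and proliferative (dark) zone library of each mouse, in percent, with 95% Wilson intervals for counting error. The proliferative zone is higher in each mouse, and the pair of mouse 6 is the closest, at 1.54% and 1.90%.

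Ratios between the genes within a library do not depend on the scaling of the library, and 7 pairs were compared. The ratio of *Col11a1* to *Col2a1*, on the log2 scale of counts, was -3.19, -3.10, -2.90 and -3.71 in the resting zone of mice 1, 2, 6 and 13 and -1.98, -1.84, -1.66 and -2.36 in the proliferative zone. The zones did not overlap, and mouse 6 had the highest ratio in each zone. The difference of the means was -1.26, which is a 2.40-fold lower ratio in the resting zone (exact permutation p = 0.0286, two-sided, n = 4 per zone, and 0.1 after adjustment over the 7 pairs). The ratio of *Col11a1* to *Col11a2* was 1.74, 1.95, 1.31 and 1.99 in resting and 2.41, 3.19, 2.85 and 2.25 in proliferative libraries. For these chains of type XI collagen, whose RefSeq windows are printed above, the difference of the means was -0.92, which is a 1.90-fold lower ratio in the resting zone (exact permutation p = 0.0286, n = 4 per zone, and 0.1 after adjustment). The smallest p that 4 against 4 libraries can give is 0.0286, which both ratios reached. With 7 pairs, so few libraries let a ratio pass the adjustment only where several pairs reach that p. The adjustment, which neither ratio passed, thus cannot decide whether these ratios differ.

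The other 5 ratios overlapped between the zones. *Col9a1* to *Col2a1* was -4.05 ± 0.53 in resting and -3.99 ± 0.54 in proliferative libraries (SD, n = 4 each), a difference of -0.06 (exact permutation p = 0.886). *Col9a2*, *Col27a1* and *Col11a2* relative to *Col2a1* differed between zones by -0.47, -0.42 and -0.34 on the log2 scale of mean ratios, with exact permutation p-values of 0.257, 0.343 and 0.343 (n = 4 per zone). The chains of type IX collagen, *Col9a1* and *Col9a2*, had a log2 ratio of -0.50 ± 0.13 in resting and -0.91 ± 0.84 in proliferative libraries (SD, n = 4 each; exact permutation p = 0.371). The spread of this ratio was wide in the proliferative zone, from -1.77 in mouse 13 to 0.09 in mouse 2.

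**Figure D5:**
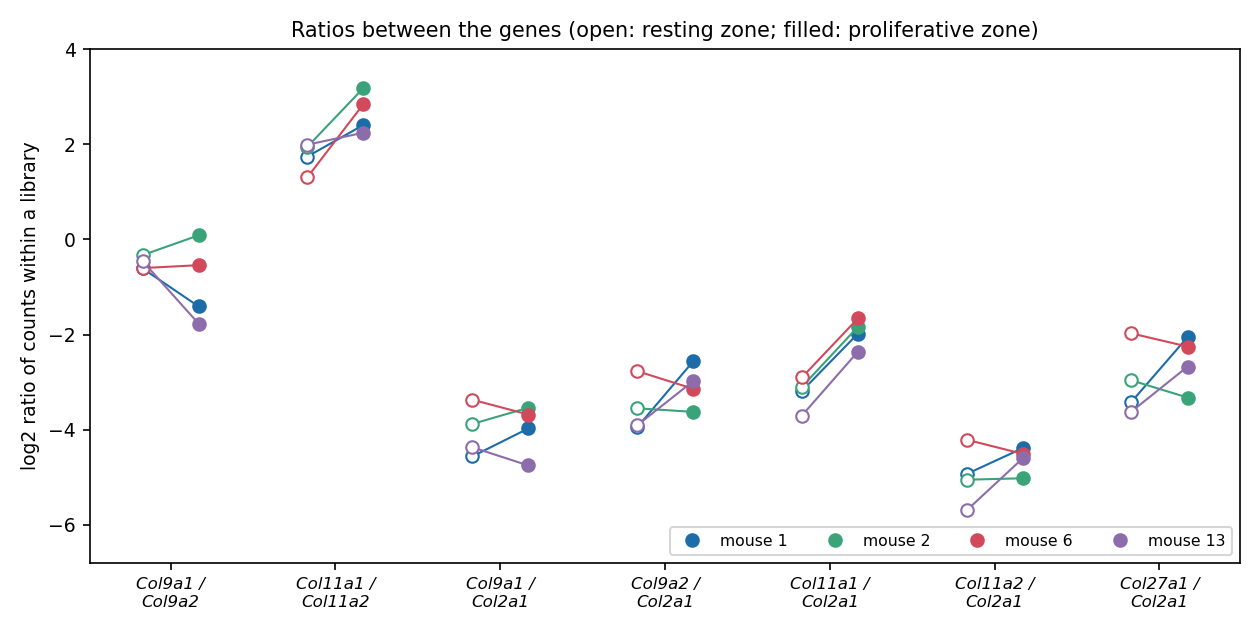
Log2 ratio of counts for 7 pairs of genes within each library, in the resting (open) and proliferative (filled) zone, with a line for each mouse. *Col11a1* relative to *Col2a1* and to *Col11a2* rises from the resting to the proliferative zone in 4 of 4 mice without overlap, and the other 5 pairs overlap.

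Levels were compared between genes per kilobase of exon, which assumes even coverage along the transcript and may not hold after amplification of the RNA. The strand setting of the counting is not known either, and whether it left reads of some genes uncounted was not tested. In the proliferative zone the order was *Col2a1* at 1656 ± 491.7 CPM per kilobase, *Col9a2* at 580.0 ± 140, *Col11a1* at 308.6 ± 97.8, *Col9a1* at 199.7 ± 102, *Col27a1* at 192.3 ± 30.7 and *Col11a2* at 87.65 ± 14.3 (SD, n = 4 each). *Col2a1* and *Col9a2*, and *Col27a1* and *Col11a2*, were neighbors whose ranges did not overlap, whereas *Col9a1* exceeded *Col27a1* in 1 of 4 libraries only. In the resting zone the order was *Col2a1* at 642.8 ± 196.5 CPM per kilobase, *Col9a2* at 187.4 ± 140.6, *Col9a1* at 79.1 ± 54.5, *Col27a1* at 69.9 ± 62.6, *Col11a1* at 51.5 ± 24.3 and *Col11a2* at 31.1 ± 23.2 (SD, n = 4 each), and all neighbors below *Col2a1* overlapped. *Col11a1* stood at the third place in the proliferative zone and at the fifth in the resting zone. Without mouse 6 the resting zone means were 117.4 ± 17.2 CPM per kilobase for *Col9a2*, 52.3 ± 11.0 for *Col9a1*, 39.4 ± 1.86 for *Col11a1*, 38.7 ± 4.28 for *Col27a1* and 19.5 ± 2.76 for *Col11a2* (SD, n = 3 each), so *Col11a1* and *Col27a1* changed places, which then differed by less than the SD of either.

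The zone difference was also compared between the sexes, each with 2 mice. The mean log2 ratio of the resting to the proliferative zone was lower in males for all 6 genes, for instance -2.27 in males and -0.59 in females for *Col9a1* and -3.04 and -2.23 for *Col11a1*. The fits for the interaction of zone and sex had no term for the mouse, so they did not use the pairing of zones within an animal. In edgeR's quasi-likelihood test of this interaction, 0 of the 6 genes passed an adjusted p of 0.05, as against 0.0264% of all tested genes. *Col9a1* was the only gene of the 6 below 0.05 before adjustment (adjusted p = 0.724 by edgeR). edgeR's likelihood ratio test had *Col9a1* and *Col9a2* below 0.05 before adjustment and also gave 0 genes at that adjusted p. The interaction estimates moved with single libraries of either sex. When the resting library of mouse 6 was left out, the estimate of *Col9a1* went from -1.95 to -1.05, and that of *Col11a2* from -1.08 to 0.23 on the log2 scale. Without the resting zone library of mouse 13 they went to -2.47 and -1.70, and that of *Col27a1* from -1.40 to -2.08, with 5 of the 6 genes below 0.05 before adjustment and none after it (edgeR adjusted p = 0.164 to 0.481). Without the proliferative library of mouse 1 that of *Col9a1* was -2.47 and without that of mouse 2 it was -1.37 (edgeR adjusted p = 0.581 and 0.901). With all genes of at least 1 count in the fit, all 6 genes were below 0.05 before adjustment and 0 after it, the lowest being *Col9a1* (edgeR adjusted p = 0.0623).

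Genes that act with these collagens were taken in 5 lists. Of 34 genes for collagen synthesis, modification and secretion, 25 were tested, 9 were called lower and 0 higher in the resting zone, where 6.93% and 11.0% of all tested genes were called lower and higher, and their median log2 fold change was -1.67, against 0.08 over all tested genes. *Plod2*, a lysyl hydroxylase, had a log2 fold change of -1.95 and *P4ha1*, a catalytic subunit of prolyl hydroxylase, one of -2.50. *P4hb*, which encodes the partner subunit of prolyl hydroxylase, had -1.55 and *Serpinh1*, the collagen chaperone of the endoplasmic reticulum, had -1.54 (edgeR adjusted p = 0.000619, 0.000942, 0.00131 and 0.00136 for these 4 genes). With the resting library of mouse 6 left out, 14 genes of this list were called lower and 1 higher, beside 9.61% and 13.0% of all genes tested. With the proliferative library of mouse 2 left out, 5 were called in either direction, beside 11.4% of all genes tested. By edgeR's likelihood ratio test over all 8 libraries 16 were called lower and 1 higher, beside 10.2% and 14.9% of all tested genes.

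Of 16 fibril surface and linker proteins, 14 were tested, 6 were called lower and 1 higher (6.93% and 11.0% of all tested genes), with a median log2 fold change of -1.48. Without the resting library of mouse 6, 9 were called lower and 1 higher, beside 9.61% and 13.0% of all genes tested. *Hapln1*, the link protein that fixes aggrecan to hyaluronan, had 1549 ± 1207 CPM in resting and 13705 ± 4199 CPM in proliferative chondrocytes (SD, n = 4 each), and its log2 fold change was -3.14 (edgeR adjusted p = 0.000485). Its resting zone mean was 974.9 CPM without mouse 6. *Prelp* and *Epyc*, small leucine-rich proteins of cartilage, had log2 fold changes of -3.09 and -3.38 (edgeR adjusted p = 0.000135 and 0.000579). *Dcn*, which encodes decorin, a proteoglycan that binds collagen fibrils in many tissues, went the opposite way, with 269.6 ± 74.0 CPM in resting and 32.9 ± 6.56 CPM in proliferative chondrocytes (SD, n = 4 each) and a log2 fold change of 3.04 (edgeR adjusted p = 8.79e-05). Exons of *Prelp* and *Epyc* overlap genes on the opposite strand, so their counts are uncertain.

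Of 15 other collagen genes, 12 were tested, 1 was called lower and 6 were called higher in the resting zone (6.93% and 11.0% of all tested genes were called lower and higher), so most of the called genes of this list went the opposite way from the 6 cartilage fibril genes. *Col1a2*, *Col3a1* and *Col5a2*, chains of the fibrillar collagens of bone and soft tissue, had log2 fold changes of 3.20, 4.50 and 3.35 (edgeR adjusted p = 0.000332, 0.000434 and 0.00107). The osteoblast and osteocyte markers, which include *Col1a1* and *Col1a2*, summed to 8628 to 36723 CPM in resting and 619.9 to 3864 CPM in proliferative libraries, and their part in these differences was not tested. *Col10a1*, the collagen of hypertrophic chondrocytes, was the gene called lower, with 7.85 ± 10.4 CPM in resting and 188.8 ± 133.1 CPM in proliferative chondrocytes (SD, n = 4 each) and a log2 fold change of -4.28 (edgeR adjusted p = 0.00139). Its resting zone counts were 0, 3, 11 and 0 in mice 1, 2, 6 and 13, and without the resting library of mouse 6 the mean was 3.17 CPM and the log2 fold change -5.67 (edgeR adjusted p = 0.00106). Its exons share 18 bases with *Nt5dc1* on the opposite strand, which had 6 to 312 counts per resting zone library and 739 to 7026 per proliferative zone library, against 0 to 11 and 25 to 208 counts for *Col10a1*, so its counts are uncertain too. The list of 8 prehypertrophic and hypertrophic markers holds *Col10a1*, *Mef2c* and *Mmp13*. It summed to 998.5 to 2431 CPM in resting and 949.9 to 1620 CPM in proliferative libraries. Of these markers 7 were tested, with 2 called lower and 2 higher in the resting zone (6.93% and 11.0% of all tested genes). The paper holds that prehypertrophic cells caught with the proliferative ones likely raised *Ihh*, *Mef2c* and *Pth1r* there, which was not tested here.

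Of 13 regulators of cartilage collagen genes, 9 were tested, and *Sox9*, the transcription factor that activates *Col2a1*, *Col9a1* and *Col11a2*, was the only gene called, where 6.93% of all tested genes were called lower. It had 277.2 ± 242.6 CPM in resting and 1522 ± 265.1 CPM in proliferative chondrocytes (SD, n = 4 each) and a log2 fold change of -2.44 (edgeR adjusted p = 0.00176), and the resting zone mean was 157.4 CPM without mouse 6. With the resting library of mouse 6 left out *Sox5* and *Wwp2* were called beside *Sox9*, where 9.61% of all genes tested were called lower. With that of mouse 13 left out 2 regulators were called in either direction, beside 13.6% of all genes tested. *Sox5*, whose product acts with that of *Sox9*, and *Mef2c*, a factor of hypertrophic differentiation, had log2 fold changes of -1.33 and -1.57, which were not called over all 8 libraries by the quasi-likelihood test (edgeR adjusted p = 0.0270 and 0.0113). *Wwp2*, a ubiquitin ligase and host gene of a cartilage microRNA, had -0.88 (edgeR adjusted p = 0.181). Without the resting library of mouse 6 *Sox5* had -1.80 and *Wwp2* -1.77 (edgeR adjusted p = 0.00552 and 0.00203). The likelihood ratio test called *Sox5* and *Mef2c* (edgeR adjusted p = 0.00892 and 0.00101). Of 16 collagen receptors and degrading enzymes, 12 were tested, 0 were called lower and 3 higher, beside 6.93% and 11.0% of all tested genes. These were *Mmp9*, *Mmp13* and *Ctsk*, proteinases that cleave collagen or gelatin, with log2 fold changes of 5.56, 4.66 and 3.85 (edgeR adjusted p = 0.000135, 0.00109 and 0.0021). The likelihood ratio test called 1 gene of this list lower and 7 higher, beside 10.2% and 14.9% of all tested genes. *Mmp9* and *Ctsk* are also among the osteoclast markers, which summed to 1496 to 4549 CPM in resting and 14.4 to 444.6 CPM in proliferative libraries. *Ddr2*, a collagen receptor kinase, had a log2 fold change of -2.11 and was not called (edgeR adjusted p = 0.0119). It was called by the likelihood ratio test (edgeR adjusted p = 0.000158) and without the resting library of mouse 6 (-2.82, edgeR adjusted p = 0.00321), and its exons overlap an opposite-strand gene.

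Each of the 6 genes followed the mean of the other 5 over the 8 libraries, on the scale of log2(CPM + 1), with Pearson correlations of 0.897 for *Col9a1* to 0.972 for *Col11a2*, and after the zone means were removed the correlations were 0.744 for *Col2a1* to 0.908 for *Col11a2*. Over the 8 libraries, which share 4 mice and 2 zones, the genes of at least 50 CPM most like the mean of the 6 were *Acan*, which encodes aggrecan (0.995), *Chrdl1*, an antagonist of bone morphogenetic proteins (0.983), *Tceal8* (0.980), *C1qtnf3* (0.978) and *Fads1*, a fatty acid desaturase (0.977), among 2201 candidates. *Acan* had 415.6 ± 415.0 CPM in resting and 1580 ± 232.5 CPM in proliferative chondrocytes (SD, n = 4 each). Its resting zone mean was 208.6 CPM without mouse 6. Like 3 of the 6 genes, it was not called by the quasi-likelihood test without a block (edgeR adjusted p = 0.0109). *Acan* was called with the mouse as block (-2.36, edgeR adjusted p = 0.00286), by the likelihood ratio test (edgeR adjusted p = 0.0015) and without the resting library of mouse 6 (-2.94, edgeR adjusted p = 3.76e-05). After removal of the zone means the most alike genes were *Mgp*, which encodes matrix Gla protein (0.984), *Acan* (0.980), *Cst3*, which encodes cystatin C (0.969), *Iqsec1* (0.956) and *Tceal8* (0.951). *Mgp* and *Cst3* were higher in the resting than in the proliferative zone by mean CPM, with 1103 ± 858.0 against 399.2 ± 78.0 CPM for *Mgp* and 470.0 ± 326.6 against 88.3 ± 16.7 CPM for *Cst3* (SD, n = 4 each). Likeness within zones moved with the resting library of mouse 6. Without it the correlations after removal of zone means, over 7 libraries, were 0.726 for *Mgp*, 0.826 for *Acan*, 0.507 for *Cst3*, 0.727 for *Iqsec1* and 0.467 for *Tceal8*, and those of the 6 genes with the mean of the other 5 were -0.28 for *Col27a1* to 0.704 for *Col2a1*. With the zone means kept, and without that library, the correlations of the 6 genes with the mean of the other 5 were 0.903 for *Col9a1* to 0.987 for *Col11a1*, and those of the first 5 genes named were 0.979 for *Fads1* to 0.997 for *Acan*. *Mgp*, *Cst3* and *Iqsec1* had -0.81, -0.95 and -0.88 on that scale, and -0.30, -0.58 and -0.25 over all 8 libraries. The zone difference was called for *Cst3* (log2 fold change 2.41, edgeR adjusted p = 0.000901) and not for *Mgp* (1.47, edgeR adjusted p = 0.0166).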

How the data were processed

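Resting and proliferative chondrocytes of 4 mice were dissected from frozen sections of 8 µm, and their RNA was amplified in 2 rounds of in vitro transcription before library preparation. Reads were trimmed (BBDuk), aligned to GRCm38 (HISAT2 2.1.0) and counted per gene by the authors (HTSeq 0.11.2), who deposited the raw counts without normalization. The tool names and versions are from the submitters' processing notes and the study's methods. A second table held the authors' own comparison in 13 columns, which were not used; symbols were taken from it.

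Depth was 192882 to 631474 counts per library, which limits genes of low level. The p-values of the main fit measure the spread between the 4 libraries of a zone, with those of an animal taken as independent. The fit with the mouse as block measures the spread of the zone difference between the 4 mice. Counts were fitted with edgeR 4.0.16 in R 4.3.3 (TMM factors, edgeR's filter by zone at a minimum count of 10 and total of 15, quasi-likelihood test on zone, Benjamini-Hochberg adjustment over 3793 genes; common biological coefficient of variation 0.38). Standard errors are the log2 fold change over the root of F. The study's methods name no block, so none was used for the main values; libraries of a number come from the same animal by the labels, and after removal of zone means the libraries of a mouse correlated at 0.165, 0.0136, 0.137 and 0.0577 in mice 1, 2, 6 and 13, against -0.0615 to -0.00828 with other mice. No pair of libraries of the same zone agreed within sampling noise. Ratios used log2 of (count + 0.5) and exact permutation in Python 3.11.15 with scipy 1.17.1. The fits were tested on simulated data. Coordinates and exon lengths are from GENCODE M21. Alternatives were edgeR's likelihood ratio test, DESeq2 1.42.0, other factors, other filters, the mouse as block, and libraries or mice left out.

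The members, lists and tests were chosen with earlier results of these data known. Genes named are the 6 members, up to 4 genes per list with the lowest adjusted p, and the 5 genes most like the members with and without the zone means; *Col9a3* and the overlapping genes were added after their values were seen, as were the bone and marrow markers at 0.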

Additional observations from a re-analysis of the deposited data

Results flagged for a closer look

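Among 28 groups of 4 libraries examined for a value far from the other 3, 6 had a gap to the nearest library that exceeded Dixon's 95% limit, where chance gives about 1 in 20 groups. In 5 of them the value was the highest of the resting zone and belonged to mouse 6. These values were 809.7 CPM for *Col9a1*, 1229.5 CPM for *Col9a2*, 1120.1 CPM for *Col11a1*, 451.6 CPM for *Col11a2* and 2131 CPM for *Col27a1*, against means of the other 3 libraries of 264.9, 363.3, 501.9, 134.2 and 503.3 CPM. *Col2a1* was also highest there, at 1.64 times the mean of the others, without passing that limit. The groups are not independent, since these 5 values come from the same library. The sixth value was the proliferative zone library of mouse 2 for *Col11a1*, at 5787 CPM, and without it the log2 fold change of *Col11a1* was -2.39 (edgeR adjusted p = 0.00118).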

How the results depend on the processing

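All 6 genes kept a negative log2 fold change (resting over proliferative zone) in every alternative fit that was run, while the number called depended on the setting. It was 5 with DESeq2, 5 with the mouse as a replicate block, 6 with every gene of at least 1 count, 6 without both libraries of mouse 6, 1 without both libraries of mouse 1, 2 or 13, and 2 to 6 when single libraries were left out, 6 only without the resting zone library of mouse 6 (4.31% to 9.61% of all genes tested were called lower in the fits without a single library). *Col11a2* passed the threshold with DESeq2 (-1.50), the likelihood ratio test (-1.47), at least 1 count (-1.67), the block (-1.70) and without mouse 6 (-2.28). *Col27a1* passed it with DESeq2 (-1.48), at least 1 count (-1.66), the block (-1.80) and without mouse 6 (-2.38), and *Col9a1* with at least 1 count (-1.53) and without mouse 6 (-2.05). *Col2a1* lost its call without both libraries of mouse 1 (-1.40), 2 (-1.08) or 13 (-1.36), and *Col9a2* without those of mouse 1 (-1.36), 2 (-1.51) or 13 (-1.42) and with library size as the sole factor (-1.47), which moved the median of all genes from 0.08 to 0.20. The fits without a mouse had fewer samples; for the others the cause was not tested. With single libraries left out the log2 fold changes were -1.60 to -1.25 for *Col2a1*, -1.96 to -0.97 for *Col9a1*, -2.33 to -1.43 for *Col9a2*, -2.99 to -2.39 for *Col11a1*, -2.17 to -1.31 for *Col11a2* and -2.33 to -1.25 for *Col27a1*. The genes called in the lists were 11 fibril surface genes, 19 synthesis genes, 3 regulators and 6 receptor or degradation genes with at least 1 count, in either direction (7.41% of all genes), and 17 synthesis genes, 3 regulators and 8 receptor or degradation genes (1 lower, 7 higher) with the likelihood ratio test (25.1%). Leaving out single libraries gave 5 to 15 synthesis genes, 6 to 10 fibril surface genes, 1 to 3 regulators, 2 to 4 receptor or degradation genes and 5 to 7 other collagens, beside 10.4% to 22.6% of all genes. The log2 ratio of *Col9a1* to *Col2a1* changed sign, from -0.31 to 0.11 over these omissions, and *Col11a1* to *Col2a1* and to *Col11a2* stayed at -1.40 to -1.10 and -1.07 to -0.75. Pairing by mouse, with signs flipped within the 4 mice, cannot give a p under 0.125 for these ratios, and the block changed no other call of the 6 genes. Levels per kilobase and correlations without the resting library of mouse 6, and overlap by library size alone, were added after seeing the data. The alternative that adds counts of opposite-strand partners was not run for the 6 genes, since no exon overlap was found.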
